A study of Mus musculus with 6 samples.

Results

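Messenger RNAs for inflammatory cytokines are short-lived, and a small set of RNA-binding proteins sets how fast they are removed. Here 10 genes of that set were examined in cells labelled as microglia, the resident macrophages of the central nervous system, after co-culture with neutrophils. They were picked by name from 55335 gene identifiers in the table, as the tristetraprolin family (Zfp36, Zfp36l1 and Zfp36l2), the regnases (Zc3h12a and Zc3h12c), the roquins (Rc3h1 and Rc3h2) and 3 proteins that bind AU-rich elements (Elavl1, Khsrp and Hnrnpd). All 10 passed the filter on low values. Each had at least 1 FPKM on average over the 6 libraries, where FPKM counts sequenced fragments per length of transcript, scaled to the number mapped in a library.

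The microglia in every library were WT primary cells from the brains of neonatal C57BL/6 mice, detached from mixed glia by shaking on day 14. Neutrophils were taken by magnetic sorting from the injured spinal cord of Cd177 WT or Cd177 KO mice (male, per the methods, which give an adult age for purchased C57BL/6 mice) on day 3 after spinal cord injury (SCI) and kept with the microglia for 24 h. The microglia were then recovered by flow sorting of Ly6G- cells, so the genotype differs in the neutrophils and not in the cells that were sequenced. There were 3 libraries with WT neutrophils (the WT arm) and 3 with KO neutrophils (the KO arm), and neither microglia without neutrophils nor uninjured controls were analysed here. Separate cultures are not stated for the libraries within an arm, so p-values measure only the spread between these libraries.

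Tristetraprolin (the product of Zfp36) and its relatives bind AU-rich elements in the 3′ untranslated region (UTR) of an mRNA and recruit the enzymes that shorten its poly(A) tail. Regnase-1 (Zc3h12a) is an endoribonuclease that cuts mRNAs at stem-loops in the 3′ UTR, and roquins bind stem-loops of a similar kind and recruit the deadenylation machinery. In macrophages several of these genes are themselves induced by inflammatory signals, and their products limit how long the response lasts.

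The libraries held between 19653 and 20449 genes above 0, and their FPKM values summed to between 314084.9 and 326868.0. Library pairs correlated across genes with r (Pearson, log2(FPKM + 1)) of 0.988 to 0.989 within an arm and 0.956 to 0.959 between arms, a description over genes that are not independent replicates. Of 12 microglia markers 8 stayed under 1 FPKM in every library, and Sall1, Fcrls and C1qa were listed at 0 in all 6. P2ry12 reached at most 0.148, Aif1 0.282 and Tmem119 0.794 FPKM. These 8 markers of the labelled cell type were thus absent or low, while 4 others passed the filter. The identity of the cells is therefore in doubt, and the name microglia is used here as the label gives it. By contrast all 11 macrophage markers were tested (summed level 2676 to 2728 FPKM in WT libraries and 2776 to 2821 FPKM in KO libraries). Behind that sum 9 of the 11 macrophage markers were called, 6 higher and 3 lower, against 43.3% of all genes tested (24.5% higher and 18.8% lower), with log2 changes of -1.79 for Cd14, -1.34 for Adgre1, 0.86 for Laptm5 and 0.40 for Cd68. Among the microglia markers that could be tested Trem2 and Csf1r were higher and Cx3cr1 was lower with KO neutrophils. None of 13 neutrophil markers reached 1 FPKM in any library, and 6 were listed at 0 throughout, among them Ly6g, S100a9 and Mpo. Their summed level was 2.03 to 2.30 FPKM in WT libraries and 0.791 to 1.28 FPKM in KO libraries. None of the 8 astrocyte and oligodendrocyte markers reached 1 FPKM (summed level 0.312 to 0.3996 FPKM in WT libraries and 0.284 to 0.366 FPKM in KO libraries). Cd177 itself had 0.477, 0.113 and 0.151 FPKM in the WT arm and 0.109, 0.0217 and 0.0845 in the KO arm, too little to check the neutrophil genotype. The part of these markers in the results was not tested.

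AU-rich elements are built from short repeats. The heptamer TATTTAT, in which T stands for U of the RNA, was searched on the transcribed strand in the longest annotated 3′ UTR of each gene, counting overlapping matches, and 30.2% of the tested genes with such a UTR held at least 1. The windows printed next hold the densest group of heptamers in the 3′ UTR of 5 decay regulators and of 6 target mRNAs to which the results return. Each window has 30 bases, reads 5′ to 3′ on the strand of the gene in GRCm38 (GENCODE M21 transcripts), and carries the heptamers in capitals.
Zfp36: ccttTATTTATgacgacttTATTTATtgta
Zfp36l1: cttatcaaaacgTATTTATtgccaaactat
Zfp36l2: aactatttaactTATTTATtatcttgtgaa
Zc3h12c: tgctataatcatTATTTATaggaacaaaga
Elavl1: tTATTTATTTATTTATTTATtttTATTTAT
Tnf: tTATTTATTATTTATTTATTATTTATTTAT
Il1b: cttaccTATTTATTTATgTATTTATtgatt
Cxcl2: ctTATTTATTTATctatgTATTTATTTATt
Ptgs2: actgaccaTATTTATTTATTTATgtgaaga
Csf3: gttTATTTATctctatttaaTATTTATgca
Il6: atttatgattgaTATTTATtatttttatga

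The windows of the regulators lie at chr7:28376958-28376987 for Zfp36, chr12:80108422-80108451 for Zfp36l1, chr17:84184914-84184943 for Zfp36l2, chr9:52114862-52114891 for Zc3h12c and chr8:4285777-4285806 for Elavl1, all on the minus strand and within 1 exon. Those of the targets lie at chr17:35199678-35199707 on the minus strand for Tnf, chr2:129364802-129364831 on the minus strand for Il1b, chr5:90905325-90905354 on the plus strand for Cxcl2, chr1:150105789-150105818 on the plus strand for Ptgs2, chr11:98702988-98703017 on the plus strand for Csf3 and chr5:30019727-30019756 on the plus strand for Il6. The same heptamer was thus present in regulators and in listed targets. In their whole 3′ UTRs Elavl1 held 8 heptamers in 4218 bases, Zfp36 3 in 774, Zfp36l1 3 in 1835, Zfp36l2 3 in 1822, Rc3h2 3 in 5331, Zc3h12c 2 in 4062 and Rc3h1 2 in 7181. Zc3h12a, Khsrp and Hnrnpd held none in 856, 1642 and 5429 bases. A match is a description of the letters and not of a bound site.

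To ask how these regulators differ in microglia exposed to neutrophils without Cd177, the values were compared between the arms with limma on log2(FPKM + 1), with Benjamini-Hochberg adjustment over all 11395 genes tested. The 2 regnases and Zfp36 fell, Zfp36l1, Zfp36l2 and Hnrnpd rose, and Rc3h1, Rc3h2, Elavl1 and Khsrp did not pass an adjusted p of 0.05. Hence 6 of the 10 regulators were called, 3 lower and 3 higher, against 43.3% of all genes tested (18.8% lower and 24.5% higher), so neither the number of calls nor its split sets the group apart. Rescaling every library to a common sum (the TPM scale) turned the split of all calls from 56.6% higher to 45.0% higher, while among the regulators it left the 6 calls in place and added Khsrp as lower. By size on the log2(FPKM + 1) scale, 3 of the 10 (Zc3h12a, Zc3h12c and Zfp36) changed by more than 2-fold with an adjusted p under 0.05, as did 2.53% of all genes. The ratio of mean FPKM passes 2-fold in more genes, since that scale understates changes of low genes. The arms did not overlap in 7 of the 10, against 55.8% of all genes tested, so a lack of overlap is common here. The members were chosen with results of these data known, and a list of 10 gives no more than a description. In bulk RNA, fewer cells that make a transcript and less of it per cell cannot be told apart, and neither can slower synthesis and faster decay.

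**Figure D1:**
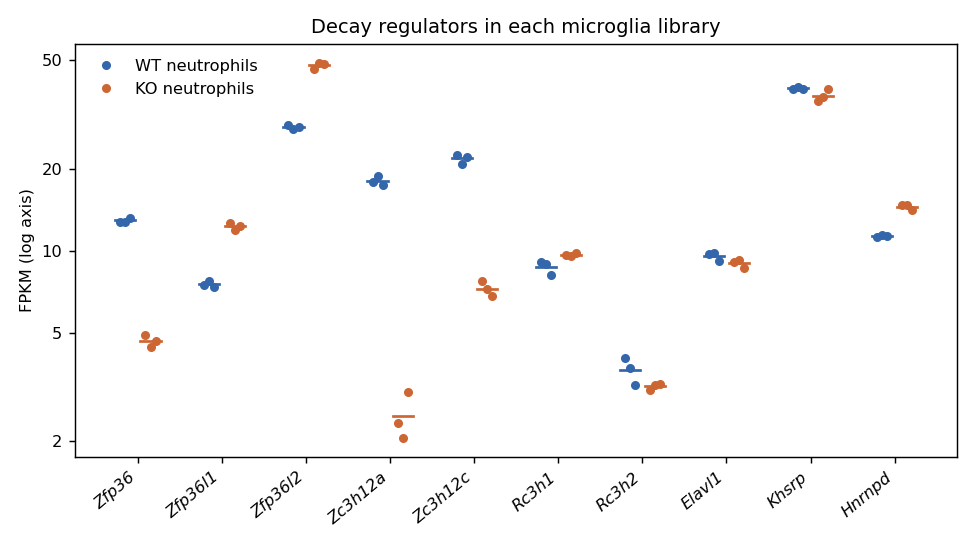
FPKM on a log axis of the 10 decay regulators in the 6 libraries, with 1 point per library and a line at the mean of each arm (blue, WT neutrophils; orange, KO neutrophils). Zfp36, Zc3h12a and Zc3h12c lie lower in every KO library than in any WT library, and Zfp36l1, Zfp36l2, Hnrnpd and Rc3h1 lie higher. The arms thus do not overlap in 7 of the 10, against 55.8% of all genes tested.

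Within the tristetraprolin family the 3 paralogues moved in opposite directions. Zfp36 (chromosome 7, 28376784 to 28380253, GRCm38), which encodes tristetraprolin, had 12.7, 12.7 and 13.2 FPKM in the WT arm and 4.92, 4.42 and 4.65 in the KO arm. The arms did not overlap, and the mean was 2.77-fold lower with KO neutrophils (log2 change -1.30, SE 0.05, limma adjusted p = 5.36e-06). Zfp36l1 (chromosome 12, 80107754 to 80113013), a paralogue with roles in B cell and vascular development, had 7.51, 7.73 and 7.33 FPKM in the WT arm and 12.7, 11.9 and 12.3 in the KO arm. Its arms did not overlap either, but the order was the other way round, with a mean 1.63-fold higher (log2 change 0.64, SE 0.04, limma adjusted p = 5.46e-05). Zfp36l2 (chromosome 17, 84183931 to 84187947), known for its part in oocyte maturation and blood cell formation, had 29.0, 27.9 and 28.4 FPKM in the WT arm and 46.5, 48.9 and 48.3 in the KO arm. It was the most abundant of the family in every library and rose by 19.5 FPKM (log2 change 0.73, SE 0.03, limma adjusted p = 8.80e-06).

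The makeup of the family was read as the share of each paralogue in the summed FPKM of the 3 and so does not depend on how libraries are scaled to each other. Zfp36 held 25.9%, 26.4% and 27.0% of that total in WT libraries and 7.68%, 6.78% and 7.13% in KO libraries. The share of Zfp36l2 went from 58.2% ± 0.628 to 73.9% ± 1.23 and that of Zfp36l1 from 15.4% ± 0.527 to 18.9% ± 0.778 (SD, n = 3 each). The sum of the 3 genes was 49.3, 48.3 and 49.0 FPKM in the WT arm and 64.1, 65.2 and 65.3 in the KO arm, so each KO library held more mRNA of the family as a whole and less of tristetraprolin. For each of these shares and for the sum the arms did not overlap (exact permutation test, two-sided, p = 0.1), which is the lowest p that 3 libraries against 3 can reach and cannot pass 0.05.

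**Figure D2:**
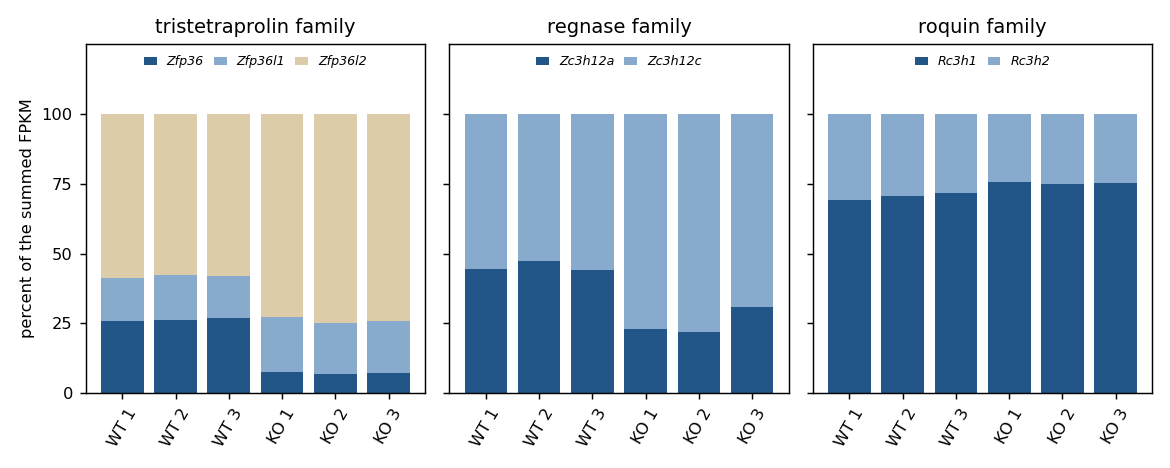
Share of each paralogue in the summed FPKM of its family, as stacked percentages for each of the 6 libraries (WT 1 to 3 and KO 1 to 3). Zfp36 takes 25.9% to 27.0% of its family in WT libraries and 6.78% to 7.68% in KO libraries, and Zc3h12a takes 44.0% to 47.5% and 22.05% to 30.8%.

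The regnases showed the largest falls of the set. Zc3h12a (chromosome 4, 125118423 to 125127840), which encodes regnase-1, had 17.9, 18.8 and 17.4 FPKM in the WT arm and 2.33, 2.05 and 3.03 in the KO arm. Every KO library lay far under every WT library, and the mean was 7.30-fold lower (log2 change -2.47, SE 0.10, limma adjusted p = 9.55e-06). By absolute log2 change it ranked 29 of the 11395 genes tested. Zc3h12c (chromosome 9, 52111344 to 52168572), which encodes the related regnase-3, had 22.5, 20.8 and 22.1 FPKM in the WT arm and 7.73, 7.26 and 6.81 in the KO arm. The arms again did not overlap, and the mean was 3.00-fold lower (log2 change -1.47, SE 0.05, limma adjusted p = 5.75e-06, rank 123). Zfp36 followed at rank 179.

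Both regnases together had 40.3, 39.6 and 39.5 FPKM in the WT arm and 10.1, 9.31 and 9.83 in the KO arm. Zc3h12a made up 44.3%, 47.5% and 44.0% of this with WT neutrophils, and 23.1%, 22.05% and 30.8% with the other genotype. KO replicate 3 stood nearest to the WT arm, but the arms did not overlap (exact two-sided permutation p = 0.1, the smallest possible). The remaining genes of the family, Zc3h12b and Zc3h12d, had at most 0.0926 and 0.0284 FPKM in any library (chosen after their values were seen).

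**Figure D3:**
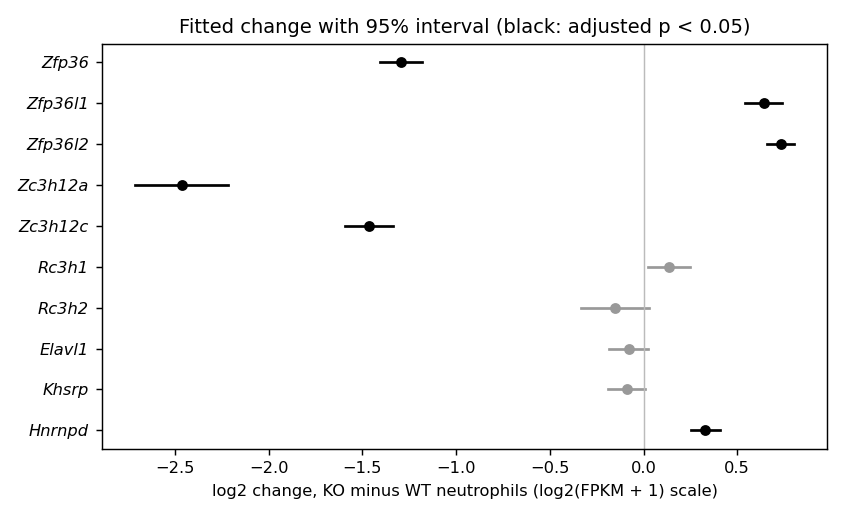
Fitted log2 change of each decay regulator, KO minus WT neutrophils, on the log2(FPKM + 1) scale, with its 95% interval from limma (black, adjusted p under 0.05; grey, not called). Zc3h12a at -2.47, Zc3h12c at -1.47 and Zfp36 at -1.30 lie apart on the left, and the 4 grey genes lie within 0.16 of 0.

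Neither roquin was called. Rc3h1 (chromosome 1, 160906418 to 160974978), which encodes roquin-1, had 9.07, 8.91 and 8.18 FPKM in the WT arm and 9.64, 9.53 and 9.79 in the KO arm. The arms did not overlap, as in 55.8% of all genes tested, yet the change of 0.13 (95% interval 0.02 to 0.25) had a limma adjusted p of 0.0593. Rc3h2 (chromosome 2, 37370069 to 37422903), the roquin-2 gene, had 4.02, 3.73 and 3.22 FPKM in the WT arm and 3.08, 3.20 and 3.25 in the KO arm. The arms overlapped, with a change of -0.15 (95% interval -0.33 to 0.03, limma adjusted p = 0.147). Without WT replicate 3 the change was -0.22 (limma adjusted p = 0.0391), and without WT replicate 1 it was -0.096 (limma adjusted p = 0.3535). Rc3h1 held 69.3%, 70.5% and 71.75% of the roquin total in WT libraries and 75.8%, 74.85% and 75.1% in KO libraries (exact two-sided permutation p = 0.1, the smallest possible). The sum itself overlapped between the arms, at 12.4 ± 0.879 FPKM in the WT arm and 12.8 ± 0.181 FPKM in the KO arm (SD, n = 3 each).

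Of the AU-rich element binding proteins only Hnrnpd was called. Hnrnpd (chromosome 5, 99955935 to 99978938) encodes AUF1, whose isoforms mostly promote decay, and had 11.2, 11.4 and 11.3 FPKM in the WT arm and 14.7, 14.7 and 14.1 in the KO arm. All KO libraries lay above all WT libraries (1.28-fold, log2 change 0.33, SE 0.03, limma adjusted p = 0.000427). Khsrp (chromosome 17, 57021051 to 57031522) encodes KSRP, which recruits exosome and deadenylase to AU-rich mRNAs, and had 39.3, 39.9 and 39.1 FPKM in the WT arm and 35.3, 36.5 and 39.2 in the KO arm. KO replicate 3 fell inside the range of the WT arm, and the change was -0.09 (95% interval -0.19 to 0.01, limma adjusted p = 0.118). Khsrp passed the threshold without that library (log2 change -0.13, limma adjusted p = 0.0229) and on the TPM scale (log2 change -0.14, limma adjusted p = 0.0315). In the other 12 of 14 alternatives it did not pass, and over all 14 its log2 change came as near to 0 as -0.059 (largest limma adjusted p = 0.277). Elavl1 (chromosome 8, 4285382 to 4325413) encodes HuR, which mostly stabilises the mRNAs it binds, and had 9.72, 9.81 and 9.16 FPKM in the WT arm and 9.08, 9.24 and 8.66 in the KO arm. The arms overlapped (log2 change -0.08, 95% interval -0.19 to 0.03, limma adjusted p = 0.187). The intervals of Elavl1, Khsrp and Rc3h1 reach at most 0.25 from 0 on the log2(FPKM + 1) scale, and that of Rc3h2 0.33.

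The order of the mean levels, which FPKM allows to be compared between genes, was different in the 2 arms. With WT neutrophils it ran from Khsrp (39.4 FPKM) through Zfp36l2 (28.4), Zc3h12c (21.8), Zc3h12a (18.0), Zfp36 (12.9), Hnrnpd (11.3), Elavl1 (9.56), Rc3h1 (8.72) and Zfp36l1 (7.52) to Rc3h2 (3.66). With KO neutrophils Zfp36l2 (47.9 FPKM) stood first, followed by Khsrp (37.0), Hnrnpd (14.5), Zfp36l1 (12.3), Rc3h1 (9.65), Elavl1 (8.99), Zc3h12c (7.26), Zfp36 (4.67), Rc3h2 (3.18) and Zc3h12a (2.47). Zc3h12a thus went from place 4 to place 10, and Zfp36l1 from place 9 to place 4. In neither arm did the libraries of neighbouring genes overlap. Exons of 7 of the 10 genes overlap a gene on the opposite strand in the annotation (Gm44710 for Zfp36, Gm26669 for Zfp36l1, AC132455.1 for Zfp36l2, Mir6244 for Zc3h12c, Ccl25 for Elavl1, Gm17949 for Khsrp and Gm17092 for Hnrnpd), and reads of both cannot be told apart if strand was not used. Ccl25 had at most 2.815 FPKM, Gm26669 was not matched in the table, and the other 5 partners had at most 0.737 FPKM.

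Genes that act upstream of the decay regulators were then read from a list of 19. Of 18 tested 10 (55.6%) were called, 8 lower and 2 higher, against 43.3% of all genes tested (18.8% lower and 24.5% higher), with a median log2 change of -0.10 against 0.02 over all genes. The kinase MK2 phosphorylates tristetraprolin and so holds it inactive, and its gene Mapkapk2 had 168, 167 and 170.5 FPKM in the WT arm and 93.7, 95.4 and 95.02 in the KO arm. The arms were far apart (log2 change -0.82, limma adjusted p = 8.87e-07). Map2k6, which encodes a kinase that activates p38, fell from 4.34, 4.51 and 4.26 FPKM to 2.22, 2.07 and 1.68 FPKM (log2 change -0.85, limma adjusted p = 0.000331). Mapk14, the gene of p38 alpha, had 5.49, 5.97 and 4.998 FPKM in the WT arm and 19.3, 7.96 and 6.44 in the KO arm. The arms did not overlap, KO replicate 1 lay far above the other two KO libraries, and the log2 change of 0.77 (95% interval -0.10 to 1.64) had a limma adjusted p of 0.130. Dusp1 encodes a phosphatase that switches p38 off, and fell from 9.49, 7.62 and 8.89 FPKM to 4.45, 4.64 and 4.97 FPKM (log2 change -0.76, limma adjusted p = 0.000609).

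Regnase-1 protein is removed by the protease MALT1, which works with BCL10, and by phosphorylation through IRAK1 and the IKK complex. Bcl10 fell from 15.0, 15.0 and 15.1 FPKM to 10.3, 9.90 and 9.59 FPKM (log2 change -0.55, limma adjusted p = 6.63e-05). Malt1 fell as well, from 3.14, 2.72 and 2.69 FPKM to 2.33, 2.19 and 2.07 FPKM (log2 change -0.27, limma adjusted p = 0.0235), while Irak1 rose from 10.3, 9.88 and 10.5 FPKM to 12.5, 12.1 and 12.8 FPKM (log2 change 0.26, limma adjusted p = 0.00245). Of the IKK genes on the list, named here after their values were seen, Chuk and Ikbkb were called lower (log2 changes -0.27 and -0.23, limma adjusted p = 0.00694 and 0.0114). Arid5a, whose product shields Il6 mRNA from regnase-1, had 2.71, 3.56 and 3.91 FPKM in the WT arm and 2.50, 3.53 and 3.32 in the KO arm (95% interval of the log2 change -0.43 to 0.25, limma adjusted p = 0.628).

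Other proteins that bind AU-rich or U-rich elements were read from a list of 20, of which 14 were tested. Of these 8 (57.1%) were called, 5 higher and 3 lower, against 43.3% of all genes, with a median log2 change of 0.14 against 0.02. Igf2bp2, which encodes an mRNA-stabilising protein, fell from 27.7, 27.45 and 27.2 FPKM to 15.2, 11.7 and 11.4 FPKM (log2 change -1.06, limma adjusted p = 0.000373). Celf2, whose product binds GU-rich and AU-rich RNA, rose from 1.176, 1.19 and 1.06 FPKM to 2.13, 2.27 and 2.05 FPKM (log2 change 0.56, limma adjusted p = 0.000843). Hnrnpab rose from 288, 290 and 294 FPKM to 340, 325 and 336.5 FPKM (log2 change 0.20, limma adjusted p = 0.000715), and Fubp1, a paralogue of Khsrp, rose from 6.98, 7.27 and 7.09 FPKM to 8.48, 9.003 and 9.09 FPKM (log2 change 0.28, limma adjusted p = 0.00249). The paralogues Zfp36l3, Elavl2 and Elavl4 had a value of 0 in each of the 6 libraries and were picked out once their values had been seen.

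The machinery that carries out decay was read next. Of 44 genes for deadenylation, decapping, 5′ to 3′ decay and the exosome, all of which were tested, 12 (27.3%) were called, 6 higher and 6 lower, against 43.3% of all genes. The median absolute log2 change was 0.08 against 0.17 over all genes tested. Cnot1, the scaffold of the CCR4-NOT deadenylase to which tristetraprolin and roquins bind, had 18.9, 19.8 and 19.5 FPKM in the WT arm and 20.4, 21.05 and 19.6 in the KO arm (95% interval of the log2 change -0.03 to 0.15, limma adjusted p = 0.211). Ddx6, a helicase of decapping complexes, had 36.9, 35.2 and 35.9 FPKM and 33.8, 34.0 and 34.2 FPKM (log2 change -0.08, limma adjusted p = 0.0535). Upf1, the helicase that regnase-1 requires, rose from 21.6, 21.9 and 21.3 FPKM to 24.0, 23.9 and 23.6 FPKM (log2 change 0.14, limma adjusted p = 0.00667).

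The larger changes of this list lay in adaptors of the deadenylase and in a decapping enzyme. Btg1 fell from 40.01, 36.9 and 37.0 FPKM to 18.4, 18.7 and 18.5 FPKM (log2 change -0.995, limma adjusted p = 6.62e-06). Btg2 fell from 4.24, 3.85 and 4.01 FPKM to 1.72, 1.69 and 1.73 FPKM (log2 change -0.89, limma adjusted p = 5.05e-05), whereas Tob1 of the same family rose from 5.31, 5.32 and 4.997 FPKM to 10.5, 9.23 and 11.1 FPKM (log2 change 0.86, limma adjusted p = 0.000177). Dcp2, the catalytic subunit of the decapping enzyme, fell from 13.9, 14.3 and 13.4 FPKM to 9.78, 10.1 and 9.71 FPKM (log2 change -0.45, limma adjusted p = 0.000186). Exosc6 was not called and switched between near 0 and over 17 FPKM within each arm (chosen after its values were seen), and its exons overlap those of Aars on the same strand.

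**Figure D4:**
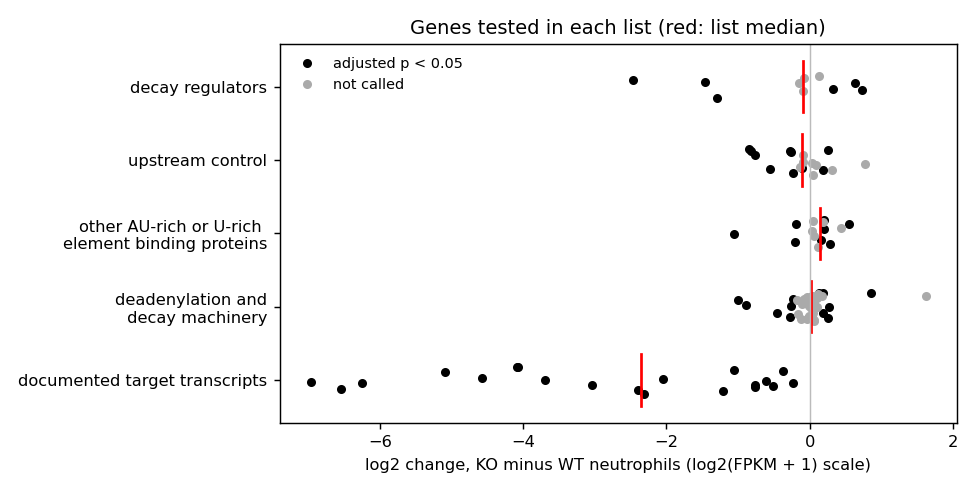
Fitted log2 change, KO minus WT neutrophils, of each tested gene in the decay regulators and in 4 further lists, on the log2(FPKM + 1) scale (black, adjusted p under 0.05; grey, not called; red line, median of the list; vertical jitter has no meaning). The 20 tested targets lie on the left with a median of -2.36, which the filter fixes in part since 8 of them passed it only through the WT arm, and decay machinery has a median of 0.02.

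Finally, mRNAs documented as targets of tristetraprolin, regnase-1 or roquin were read from a list of 26, of which 20 were tested. All 20 were called lower, against 18.8% of all genes tested, with a median log2 change of -2.36. Of these 20, 8 averaged under 1 FPKM in the KO arm and passed the filter only through the WT arm, so that a lower value was built in for them, and 12 averaged at least 1 FPKM in both arms. The list was also written when falls of several of its members were already known, so neither the count nor the median is evidence of a direction. Dusp1, described above, is on this list too. Beside the windows printed earlier, Tnf, with 8 heptamers in 764 bases of 3′ UTR, had 167, 165 and 163 FPKM in the WT arm and 10.95, 12.2 and 12.3 in the KO arm. Cxcl2, with 7 heptamers in 1494 bases, had 119, 120 and 123.5 FPKM and then 0.547, 0.581 and 0.661 FPKM. It is among the 8 that passed the filter only through the WT arm. Ptgs2, the gene of cyclooxygenase 2, holds 6 in 2445 bases and had 169, 168 and 168 FPKM against 4.13, 3.77 and 3.99 FPKM.

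Large falls were also found for targets with few heptamers or none. Nfkbiz encodes a nuclear cofactor of NF-kB and is a target of regnase-1. It held no heptamer and fell from 41.0, 41.3 and 41.4 FPKM to 4.24, 4.37 and 3.77 FPKM (log2 change -3.04, limma adjusted p = 2.47e-07). Ccl2, a monocyte chemokine, likewise held none and fell from 1149, 1179 and 1179 FPKM to 49.6, 49.1 and 45.4 FPKM (log2 change -4.58, limma adjusted p = 1.00e-08). Ccl3 held 1 and fell from 3088, 3104 and 2983 FPKM to 610, 617 and 612 FPKM (log2 change -2.32, limma adjusted p = 1.30e-08).

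Ier3, an early response gene with 4 heptamers, fell from 311, 316 and 304 FPKM to 73.65, 75.3 and 73.55 FPKM (log2 change -2.05, limma adjusted p = 4.09e-08). Il1a held 3 and fell from 57.1, 54.9 and 59.4 FPKM to 2.59, 2.33 and 2.42 FPKM (log2 change -4.08, limma adjusted p = 4.98e-08). Il6 with 1 heptamer, Il1b with 3 and Csf3 with 2 had 17.3 to 18.8, 4.45 to 4.90 and 122 to 127 FPKM with WT neutrophils. With KO neutrophils Il6 and Il1b had at most 0.171 and 0.116 FPKM, and Csf3 was listed at 0, so no fold is given for the 3. Smaller falls were found as well (named after their values were seen), with log2 changes of -0.23 for Vegfa with 3 heptamers, -0.37 for Nfkbid with none, -0.51 for Rel with 2 and -0.62 for Fos with 2. Il23a and Lif, with 5 heptamers each, had log2 changes of -0.76 and -1.06 (also named after their values were seen). Both averaged under 1 FPKM in the KO arm, and the log2(FPKM + 1) scale understates changes of low genes.

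Because the heptamer is found far beyond listed targets, all tested genes with an annotated 3′ UTR (9725, or 85.3%) were sorted by its number. The median log2 change was 0.05 for 6784 genes without a heptamer, -0.001 for 1915 genes with 1, -0.03 for 645 genes with 2 and -0.07 for 381 genes with 3 or more. The share of genes called lower was 17.0%, 24.5%, 26.7% and 31.5% in the same order, and the share called higher was 28.4%, 21.9%, 20.3% and 15.5%. Between the 3 libraries of an arm the class medians varied with an SD of 0.0026, 0.0025, 0.0036 and 0.0062 in that order (the larger of the WT and KO arms). The quartiles of single genes in the class with 3 or more were -0.23 and 0.09. Genes called lower by more than 2-fold, here and below on the log2(FPKM + 1) scale, made up 1.87%, 2.40%, 2.79% and 4.2% of the classes.

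The classes differed in other ways. Median 3′ UTR length rose from 868 bases in genes without a heptamer to 3293 bases in those with 3 or more. Among genes with a 3′ UTR of at least 1837 bases the medians were 0.04, 0.004, -0.02 and -0.06, and the share lower by more than 2-fold was 1.63%, 1.68%, 1.37% and 1.92%, so that the rise to 4.2% was not seen there. Without the 10 regulators and the 26 listed targets the medians were 0.05, -0.001, -0.03 and -0.06, whereas the share lower by more than 2-fold was 1.80%, 2.30%, 2.50% and 2.19%, so that 8 of the 16 genes behind the 4.2% were regulators or listed targets. On the TPM scale all 4 medians were lower, but the distance of the class with 3 or more from that with none was -0.13 against -0.12 on the deposited scale. With the shorter motif ATTTA in place of the heptamer the classes lay closer, with medians of 0.06 for none and -0.003 for 3 or more. What else differs between the classes was not tested.

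**Figure D5:**
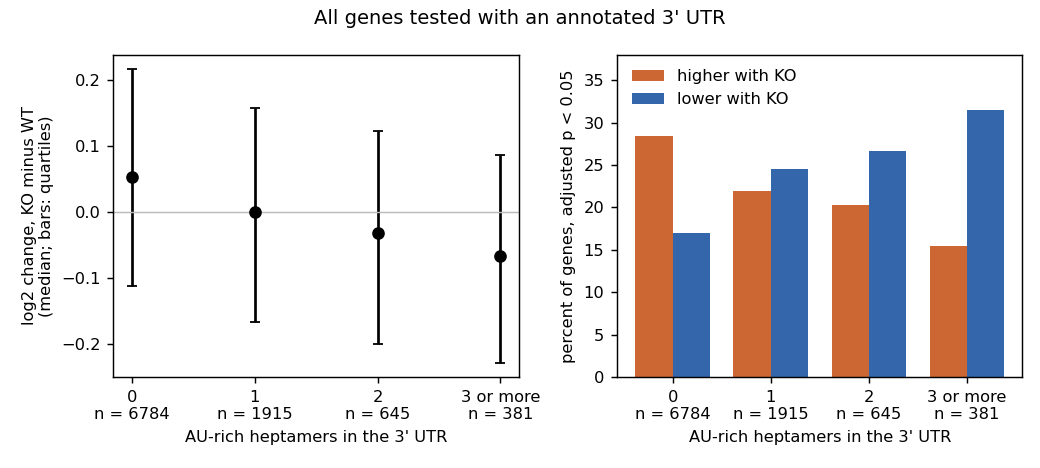
Tested genes sorted by the number of TATTTAT heptamers in their longest annotated 3′ UTR (0, 1, 2, and 3 or more, with the number of genes). Left, median log2 change KO minus WT neutrophils with bars to the lower and upper quartile; right, percent of genes with an adjusted p under 0.05 that were higher (orange) or lower (blue), where lower calls go from 17.0% to 31.5%.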

How the data were processed

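RNA-seq of sorted microglia was read from 1 table with 6 columns, which the authors deposited as FPKM values for 55335 mouse gene identifiers, with replicates not pooled. The authors used, per the labels' processing notes, fastp 0.17.1, HISAT2 2.1.0, DESeq2 1.18.1 and R 3.4.3. The program behind the FPKM values, the genome build and the annotation are not given in the sources used here. Labels and methods name different library kits and sequencers.

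Symbols were found for 99.67% of identifiers (GENCODE M21, GRCm38, possibly not the annotation used by the authors). Depth was sought from steps between values under 0.5 FPKM, in genes without alternative transcripts in the annotation. At the best of many step sizes tried, 27.8% to 30.0% of values at low multiples came out whole within 0.05 of a step. The 10% by chance holds for a fixed step and does not allow for the choice of the best. Reads could not be recovered, the depth is unknown and no interval or floor for counting is given.

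Groups and replicate numbers came from the titles. limma 3.58.1 in R 4.3.3 (lmFit, eBayes with trend, two-sided) was run on log2(FPKM + 1) for genes averaging 1 FPKM or more, which understates changes of low genes. An adjusted p under 0.05 was a call. The script was tested on simulated data. Single values had an exact two-sided permutation test (scipy 1.17.1). The longest 3′ UTR per gene was cut from the GENCODE transcripts. Alternatives were a pseudocount of 0.1, no filter, a mean of at least 5 FPKM, TPM scale, median centring, quantile normalization, no trend, a replicate block and leaving out each library. The regulators, lists and tests were chosen with earlier results of these data known. All 10 regulators were named. Further names were 14 set by hand (Tnf, Il6, Il1b, Ptgs2, Cxcl2, Csf3, Nfkbiz, Mapk14, Mapkapk2, Malt1, Arid5a, Upf1, Cnot1 and Ddx6) and up to 4 called genes of each list with the smallest p. A microglia marker on the list is not reported here.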

Additional observations from a re-analysis of the deposited data

How the results depend on the processing

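The 6 calls among the decay regulators stayed called in the same direction under each of the 14 alternatives. The number of regulators called was 6 or 7, with Khsrp added on the TPM scale and without KO replicate 3 and Rc3h2 added without WT replicate 3, and Rc3h2 was not tested once genes had to average 5 FPKM. Over all genes, 3763 to 4931 were called against 4930. Replicate numbers did not pair the libraries (correlation of deviations -0.075, -0.052 and -0.005), and with the replicate block 4212 genes, 6 regulators and 20 targets were called. When genes had to average 5 FPKM, so that fewer were tested, 5 upstream genes were lower against 8.

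Medians of the motif classes (0, 1, 2, and 3 or more) moved by more than the spread between libraries of an arm in these cases. They were 0.01, -0.047, -0.084 and -0.12 on the TPM scale, and 0.06, 0.055, 0.024 and -0.003 with the pentamer ATTTA, which is shorter and found in more genes. With the nonamer TTATTTATT the classes of 0 and 1 had 0.034 and -0.015. In 3′ UTRs of at least 1837 bases, chosen after seeing the data as was leaving out listed genes, they were 0.036, 0.004, -0.019 and -0.058. Leaving out 1 library at a time gave 0.049 to 0.052, -0.005 to -0.001, -0.039 to -0.029 and -0.07 to -0.058. The cause was not tested.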
